A study of Arabidopsis thaliana with 12 samples.

Results

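ATG8B, ATG8C, ATG8D, ATG8E, ATG8F, ATG8G, ATG8H and ATG3 are 8 nuclear autophagy genes of Arabidopsis thaliana, chosen by symbol from the annotation of the array's probe sets. They are 8 of 16550 genes tested, each with 1 probe set, and all 8 were measured. They were measured in seedlings, 7 days old. In all groups the seeds were stratified in the cold for 2 days and given 8 h of light to germinate, and the seedlings then spent 5 days in darkness and 2 days in continuous light. There were 4 groups of 3 arrays: the mutant gun1-101 with lincomycin, gun1-101 control, wild-type Col-0 with lincomycin, and Col-0 control. GUN1, a chloroplast protein with pentatricopeptide repeats, acts in plastid-to-nucleus signalling, and lincomycin, given at 0.5 mM in the plate from sowing, blocks translation in plastids. The mutant is represented by 1 allele, GUN1's own transcript was not analysed here, control plates held no lincomycin, and all groups shared the light regime. The labels call the 3 arrays of a group biological replicates and do not say whether they came from separate sowings, so the p-values measure the spread between these arrays.

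Autophagy delivers cytoplasm and organelles to the vacuole in a double-membraned vesicle, the autophagosome. ATG8 is the ubiquitin-like protein of that membrane: the protease ATG4 exposes its terminal glycine, ATG7 activates it, and ATG3, the conjugating enzyme of E2 type, passes it to the lipid phosphatidylethanolamine. Lipid-bound ATG8 is needed for the vesicle to form and docks cargo receptors. In leaves of this species autophagy also takes up pieces of chloroplasts and whole damaged chloroplasts, and several ATG8 genes are known to be induced by darkness and carbon starvation. ATG8H and its near relative ATG8I differ from the other ATG8 proteins in ending directly at the glycine.

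Values are the authors' deposited log2 levels from robust multi-array averaging (RMA), a relative scale that equalises the arrays. Levels are compared between groups for 1 gene at a time, never between genes. Differences are on the log2 scale, with the standard error (SE) and the Benjamini-Hochberg adjusted p over all 16550 genes from 1 limma fit to the 12 arrays; a gene was called at an adjusted p under 0.05, two-sided. The genes were chosen by symbol with no measured threshold, but the set was proposed with results from these same 12 arrays in view, and which of those values it was selected on is not stated. The adjusted p-values and counts below therefore describe these arrays and are no independent support for the set. In seedlings, fewer cells that hold a transcript and less of it per cell cannot be told apart.

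In Col-0, lincomycin replicate 3 and control replicate 1 each stood apart from the rest of its own group. They are called the 2 divergent Col-0 arrays below. Over all tested genes the mean correlation with the rest of the group was 0.9855 for the first and 0.9786 for the second. It was 0.9887 to 0.9914 on the remaining lincomycin and mutant arrays, and 0.9845 and 0.9851 on the remaining Col-0 controls. Lincomycin replicate 3 thus correlated better with its group than these controls did with theirs. Which Col-0 arrays are aberrant is not settled by these values. A second measure, the median of the 7083 probe sets that precede the first one with a listed gene, was 4.71, 4.54 and 4.81 in gun1-101 with lincomycin and 5.10, 5.02 and 4.88 in its controls. In Col-0 it was 5.07, 5.14 and 4.72 with lincomycin and 5.37, 4.50 and 4.50 in controls. It is called the array covariate below, and what it measures is not stated in the labels. In gun1-101 it was lower on every lincomycin array than on every control. A fit with the covariate can therefore take out part of the lincomycin response itself, and a call lost there cannot tell the 2 apart. Results that rest on the divergent arrays are given with and without both. For every member but ATG8F, replicate 3 was the highest Col-0 lincomycin array and replicate 1 the lowest Col-0 control. Leaving both out therefore had to lower the Col-0 response of these genes and raise their interaction. It also had to raise their gun1-101 minus Col-0 difference with lincomycin and lower that difference without lincomycin. Calls made only in that fit are no independent result. Of 7 green tissue markers 4 were measured. Among them the antenna gene LHCB1.5 stood at 10.37 to 10.95 in gun1-101 with lincomycin and 11.10 to 11.31 in its controls, and in Col-0 at 6.97 to 8.02 with lincomycin and 11.56 to 11.77 in controls. Of 11 root markers only the root hair expansin gene EXP7 was measured, at 7.10, 7.37 and 7.28 in gun1-101 with lincomycin and 6.54, 6.82 and 6.80 in its controls. In Col-0 it stood at 6.78, 6.90 and 7.25 with lincomycin and 6.01, 7.50 and 7.60 in controls. Of 6 seed markers 2 were measured, and none of 5 carbon starvation markers. The seed storage protein gene PAP85 stood at 8.88, 8.71 and 8.61 in gun1-101 with lincomycin and 6.71, 6.87 and 7.02 in its controls, and in Col-0 at 8.62, 8.81 and 8.00 with lincomycin and 6.12, 5.18 and 6.86 in controls. It rose with lincomycin in both genotypes, as did 7 of the 8 autophagy genes in gun1-101 and ATG8B in Col-0. The late embryogenesis gene M17 stood at 8.29, 8.64 and 8.25 in gun1-101 with lincomycin and 8.84, 8.77 and 8.72 in its controls, and in Col-0 at 9.76, 9.50 and 8.08 with lincomycin and 7.93, 5.45 and 6.67 in controls. It rose in Col-0 by 2.43 (adjusted p = 0.00993), its difference in gun1-101 was -0.38 (adjusted p = 0.636), and the interaction was called at -2.81 (adjusted p = 0.045). The part of these markers in the results was not tested.

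The first comparison asked how the autophagy genes stood in gun1-101 when plastid translation was blocked. With lincomycin, 6 of the 7 ATG8 genes and ATG3 rose in gun1-101, by 0.42 to 1.51 on the log2 scale, and ATG8F did not pass the test. This is 7 of 8 genes called higher and none lower, where 10.9% of all tested genes were called higher and 9.51% lower, 20.4% in all. The same 7 genes had every lincomycin array above every control array, and no member had every array below; 21.7% of all genes were separated upward and 24.2% downward. The median difference over the 8 genes was 1.15, against -0.06 over all genes.

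ATG8B (AT4G04620) stood at 8.91, 8.84 and 8.69 in gun1-101 with lincomycin, against 7.30, 7.37 and 7.26 in gun1-101 controls. The groups were narrow and far apart. The difference was 1.51 (SE 0.21, adjusted p = 0.000773), a 2.84-fold level and the widest of the set. ATG8H (AT3G06420) stood at 9.75, 9.79 and 9.55 with lincomycin, against 8.28, 8.37 and 8.21 in controls. Its difference was 1.41 (SE 0.19, adjusted p = 0.000719), 2.65-fold. Both calls held when any 1 of the 12 arrays was left out, at adjusted p-values of at most 0.00473 and 0.00431.

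ATG8G (AT3G60640) spread more widely, at 8.31, 7.63 and 8.01 in gun1-101 with lincomycin, against 6.70, 6.57 and 6.82 in gun1-101 controls. Even its lowest lincomycin array lay above the highest control. The difference was 1.29 (SE 0.35, adjusted p = 0.0237), and it lost its call without any 1 of 5 arrays, gun1-101 lincomycin replicate 1 or 3 or gun1-101 control replicate 1, 2 or 3 (highest adjusted p = 0.0898), and with the array covariate in the fit (0.90, adjusted p = 0.0559).

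ATG8E (AT2G45170) stood at 7.73, 7.77 and 7.57 with lincomycin, against 6.19, 6.66 and 6.73 in gun1-101 controls, a difference of 1.16 (SE 0.25, adjusted p = 0.00825). ATG8D (AT2G05630) stood at 9.61, 9.26 and 9.51 with lincomycin, against 8.42, 8.45 and 8.11 in controls, a difference of 1.13 (SE 0.22, adjusted p = 0.00508). Both roughly doubled, at 2.24-fold and 2.19-fold, and both kept the call when any 1 array was left out (highest adjusted p = 0.0351 and 0.0247).

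Smaller differences were found for ATG8C and for the conjugating enzyme. ATG8C (AT1G62040) stood at 6.07, 5.58 and 5.65 in gun1-101 with lincomycin, against 5.25, 5.36 and 5.10 in gun1-101 controls. It rose by 0.53 (SE 0.16, adjusted p = 0.0353), and its call ended without any 1 of the 5 arrays named for ATG8G (highest adjusted p = 0.137), with the array covariate (0.44, adjusted p = 0.0875), with every probe set tested and with robust moderation. ATG3 (AT5G61500) stood at 10.20, 9.98 and 10.18 with lincomycin, against 9.70 in each of the 3 controls. It rose by 0.42 (SE 0.11, adjusted p = 0.019), a 1.34-fold level, and its call ended without gun1-101 lincomycin replicate 1 or 3 or gun1-101 control replicate 1 or 2 (highest adjusted p = 0.073).

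ATG8F (AT4G16520) was the exception among the ATG8 genes. It stood at 11.51, 11.61 and 11.65 in gun1-101 with lincomycin, against 11.50, 11.54 and 11.37 in gun1-101 controls, so the groups overlapped. The difference was 0.12 (95% interval -0.11 to 0.35, adjusted p = 0.445).

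**Figure D1:**
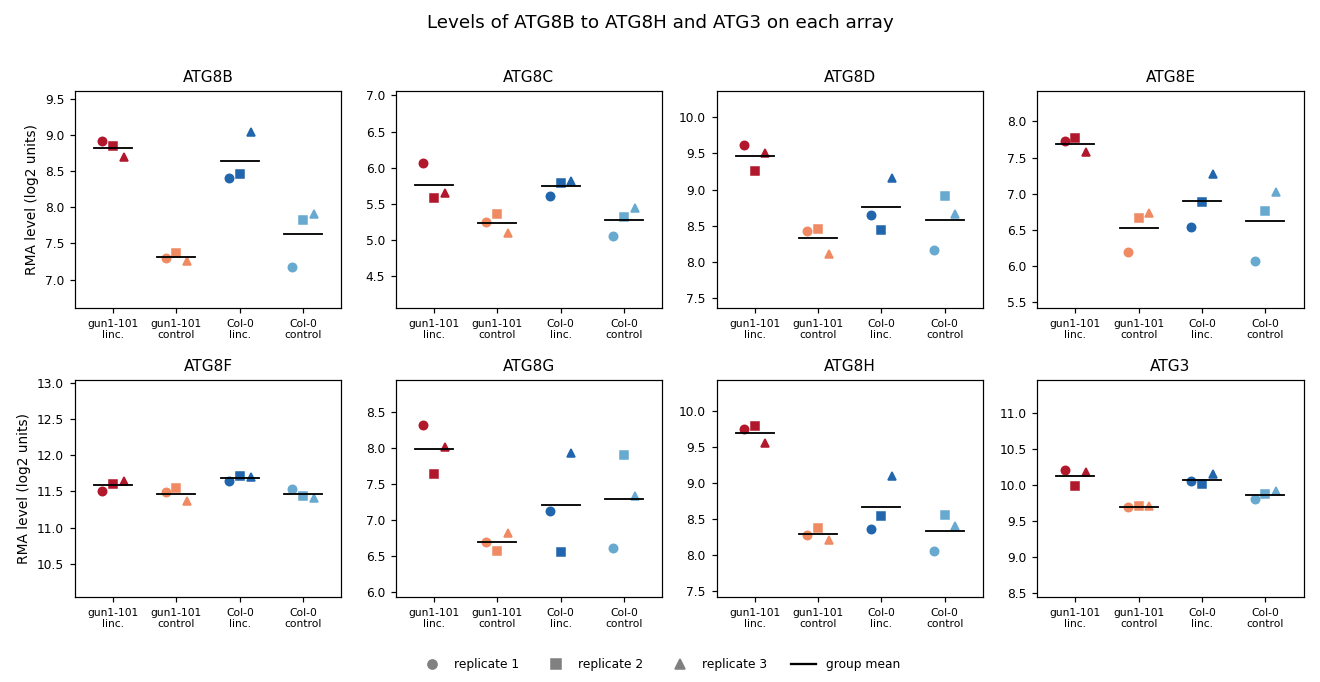
RMA level (log2 units) of each gene on each of the 12 arrays by group; symbols are the 3 replicates and lines the group means. Each panel spans the same 3 log2 units, but its offset differs between genes. In gun1-101 the lincomycin arrays lie above the controls for all genes but ATG8F, while in Col-0 control replicate 1 (circle) is low and lincomycin replicate 3 (triangle) high for several genes.

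The second comparison asked the same of wild-type Col-0. ATG8B rose with lincomycin and none of the other 7 genes passed the test. It is 1 gene of 8 called higher and none lower, where 7.15% of all tested genes were called higher and 7.19% lower, 14.3% in all. The median difference of the 8 genes was 0.26, against 0.02 over all genes. Lincomycin arrays lay wholly above controls for ATG8B, ATG8C, ATG8F and ATG3, and wholly below them for none; 14.8% of all genes were separated upward and 12.6% downward.

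ATG8B stood at 8.41, 8.46 and 9.04 in Col-0 with lincomycin, against 7.18, 7.83 and 7.91 in Col-0 controls. The highest value is that of lincomycin replicate 3 and the lowest that of control replicate 1. The difference was 1.00 (SE 0.21, adjusted p = 0.00752), 1.99-fold. It was 0.57 (adjusted p = 0.0059) without these 2 arrays, 1.16 (adjusted p = 0.000164) with the array covariate, and not called in a fit to the 6 Col-0 arrays alone (adjusted p = 0.0601).

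ATG8C stood at 5.61, 5.79 and 5.81 in Col-0 with lincomycin, against 5.05, 5.32 and 5.45 in Col-0 controls, a difference of 0.47 (SE 0.16, adjusted p = 0.0686). It was called with the array covariate (0.52, adjusted p = 0.0413) and without gun1-101 lincomycin replicate 1 (adjusted p = 0.0478). ATG3 stood at 10.05, 10.01 and 10.16 with lincomycin, against 9.80, 9.87 and 9.91 in controls, a difference of 0.21 (adjusted p = 0.234). ATG8F stood at 11.65, 11.71 and 11.71, against 11.53, 11.44 and 11.40, a difference of 0.23 (adjusted p = 0.181). For these 3 genes the groups were separate although no call was made. ATG8C, ATG3 and ATG8F differed by 0.32, 0.14 and 0.25 without the 2 divergent Col-0 arrays, none called.

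ATG8H, ATG8D, ATG8E and ATG8G, each separate in gun1-101, overlapped between the Col-0 groups. ATG8H stood at 8.36, 8.55 and 9.10 in Col-0 with lincomycin, against 8.05, 8.55 and 8.40 in Col-0 controls, a difference of 0.33 (95% interval -0.08 to 0.74, adjusted p = 0.281). ATG8D stood at 8.65, 8.44 and 9.16, against 8.16, 8.91 and 8.66 in controls, a difference of 0.18 (95% interval -0.30 to 0.66). ATG8E stood at 6.54, 6.89 and 7.27, against 6.07, 6.76 and 7.03 in controls, a difference of 0.28 (95% interval -0.27 to 0.83). In each of them lincomycin replicate 3 was the highest Col-0 array and control replicate 1 the lowest. Without both arrays these differences were -0.02 for ATG8H, -0.24 for ATG8D and -0.18 for ATG8E, none called.

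ATG8G had the widest spread in Col-0, at 7.13, 6.56 and 7.92 with lincomycin, against 6.62, 7.90 and 7.34 in controls. Its difference was -0.08 (95% interval -0.85 to 0.68), and -0.78 (adjusted p = 0.0575) without both arrays. The root hair gene EXP7 and the array covariate given above also set control replicate 1 apart from the other Col-0 controls, and LHCB1.5 stood at 8.02 in lincomycin replicate 3, where replicates 1 and 2 stood at 7.02 and 6.97. Their part in the values of the ATG8 genes was not tested, apart from the fits with the covariate and without both arrays.

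**Figure D2:**
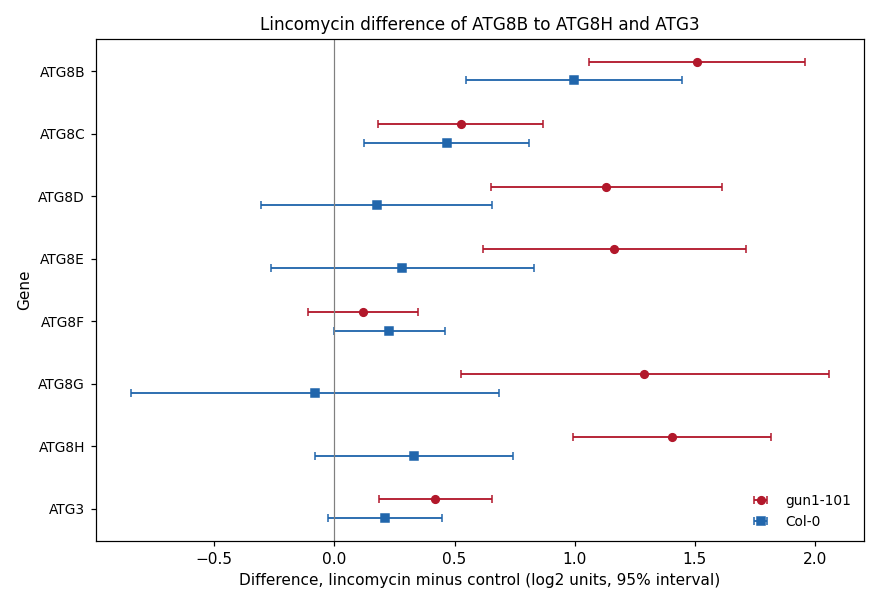
Difference of lincomycin minus control (log2 units) for each gene in gun1-101 (circles, upper) and Col-0 (squares, lower), with 95% intervals from the limma fit. In gun1-101 the interval includes 0 for ATG8F alone, and in Col-0 it lies above 0 for ATG8B and ATG8C, of which ATG8B alone was called after adjustment.

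Both genotypes on lincomycin were then compared, to see which genes differed with GUN1 mutated while plastid translation was blocked. ATG8H was higher in gun1-101, and no other member was called; 5.12% of all tested genes were called higher and 4.45% lower, 9.58% in all. The arrays of ATG8H, given above, did not overlap between the genotypes, and its difference was 1.03 (SE 0.19, adjusted p = 0.00563), 2.04-fold. The call held when any 1 array was left out (0.87 to 1.24, highest adjusted p = 0.0307) and with the array covariate (0.84, adjusted p = 0.00675). Without the 2 divergent Col-0 arrays the difference was 1.24 (adjusted p = 2e-04). Lincomycin replicate 3 was the highest Col-0 array of ATG8H, so leaving it out had to raise this difference.

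The gun1-101 arrays also lay wholly above the Col-0 arrays for ATG8D and ATG8E, so 3 of 8 genes were separated upward and none downward, where 12.9% of all genes were separated upward and 17.6% downward. ATG8D differed by 0.71 (SE 0.22, adjusted p = 0.0665) and ATG8E by 0.79 (SE 0.25, adjusted p = 0.0715). ATG8G, whose arrays overlapped, differed by 0.78 (SE 0.35, adjusted p = 0.189). Without the 2 divergent Col-0 arrays, where 24.7% of all genes were called, these 3 genes were called too, at 0.91 (adjusted p = 0.00341), 0.98 (adjusted p = 0.00522) and 1.15 (adjusted p = 0.00916). ATG8B was called then too, at 0.38 (adjusted p = 0.0282), against 0.18 (adjusted p = 0.632) with all arrays. Replicate 3 was the highest Col-0 lincomycin array of each of these genes, so their differences had to rise in that fit. With the array covariate ATG8D, ATG8E and ATG8G stood at 0.51, 0.49 and 0.43, none called.

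ATG8C, ATG8F and ATG3 lay close together in both genotypes on lincomycin. Their differences were 0.02 (95% interval -0.32 to 0.37), -0.10 (-0.33 to 0.13) and 0.05 (-0.19 to 0.29).

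Without lincomycin the mutation alone was compared. None of the 8 genes was called by limma, and none had an unadjusted p under 0.05; among all tested genes 0.0121% were called higher and 0.00604% lower, 0.0181% in all. Differences of gun1-101 minus Col-0 ran from -0.59 for ATG8G (95% interval -1.35 to 0.18) to 0.01 for ATG8F, and 7 of 8 were negative (median -0.13, and 0.02 over all genes). Between them lay ATG8B at -0.33, ATG8D at -0.25, ATG8E at -0.09, ATG8H at -0.05 and ATG8C at -0.03. ATG3 was the only member whose groups were separate, with gun1-101 at 9.70 on all arrays and Col-0 at 9.80 to 9.91, a difference of -0.16 (adjusted p = 0.515); 7.16% of all genes were separated downward and 8.18% upward. Without the 2 divergent Col-0 arrays, ATG8B (-0.56, adjusted p = 0.00884) and ATG8G (-0.92, adjusted p = 0.0321) were called lower in gun1-101. In that fit 17.2% of all genes were called. Replicate 1 was the lowest Col-0 control of both genes, so leaving it out had to lower these differences. This comparison shares its arrays with both lincomycin comparisons above.

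The difference between the responses, gun1-101 minus Col-0, was tested as an interaction. ATG8H was called: its lincomycin response was 1.07 larger in gun1-101 (SE 0.27, adjusted p = 0.0362), at 1.41 in gun1-101 and 0.33 in Col-0. Among all tested genes 4.01% were called higher and 2.95% lower, 6.97% in all. The call of ATG8H held without either 1 of the divergent Col-0 arrays, ended when any 1 of the other 10 arrays was left out (highest adjusted p = 0.096), and ended with the array covariate (0.75, adjusted p = 0.105) and with every probe set tested.

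ATG8G, ATG8D and ATG8E had interaction values of 1.37 (SE 0.50, adjusted p = 0.103), 0.96 (SE 0.31, adjusted p = 0.0787) and 0.88 (SE 0.35, adjusted p = 0.135), none called. Their 95% intervals were 0.29 to 2.46, 0.28 to 1.64 and 0.11 to 1.66. Without the 2 divergent Col-0 arrays, 5 of 8 genes were called, where 32.5% of all genes were: ATG8G at 2.07, ATG8H at 1.43, ATG8D at 1.37, ATG8E at 1.35 and ATG8B at 0.94 (adjusted p = 0.00198, 0.00038, 0.00172, 0.00408 and 0.0015). In each of these 5 genes those arrays were the highest lincomycin array and the lowest control of Col-0. Leaving them out therefore had to raise the interaction. Calls over all genes rose too, from 6.97% to 32.5%, so these calls are no independent result. With the array covariate none was called, and the values of these 5 genes were 0.75, 0.75, 0.62, 0.36 and 0.09.

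ATG8C, ATG8F and ATG3 had interaction values of 0.06 (95% interval -0.43 to 0.54), -0.11 (-0.43 to 0.22) and 0.21 (-0.12 to 0.55), not called in any of these 3 fits.

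**Figure D3:**
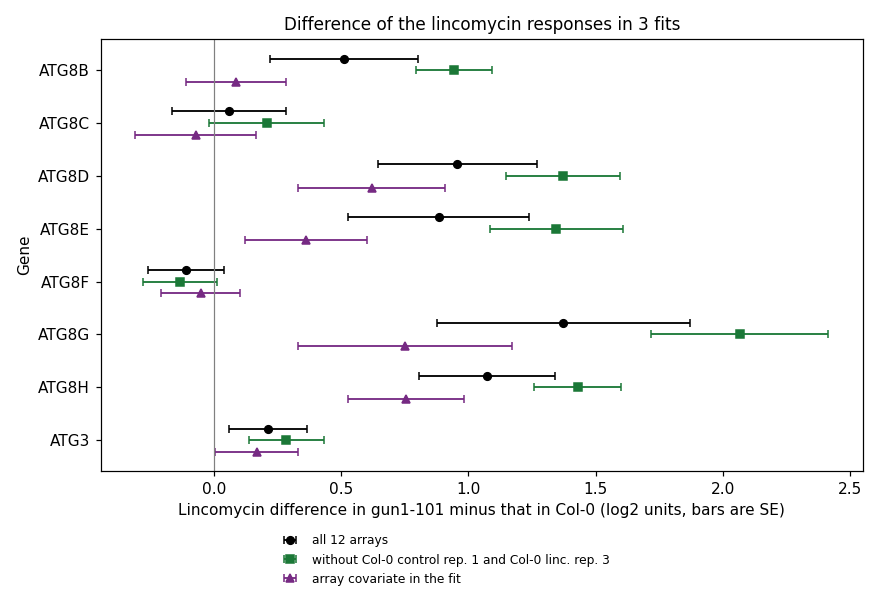
Lincomycin response in gun1-101 minus that in Col-0 (log2 units, bars are SE) for each gene, from all 12 arrays (circles), without the 2 divergent Col-0 arrays (squares) and with the array covariate in the fit (triangles). ATG8H is at 1.07, 1.43 and 0.75, ATG8B at 0.51, 0.94 and 0.09, and ATG8F is below 0 in all 3 fits.

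The order of the 4 group means was the same for 6 of the 8 genes: gun1-101 with lincomycin, Col-0 with lincomycin, Col-0 control, gun1-101 control. In ATG8D, ATG8E and ATG8H the arrays of the first and second group did not overlap, and all later neighbours did. In ATG8B and ATG8C the gap lay in the middle: both lincomycin groups overlapped, both control groups overlapped, and the 2 kinds were separate. In ATG3 only the lincomycin groups overlapped. ATG8G placed Col-0 control second, and ATG8F placed Col-0 with lincomycin first, with all neighbours overlapping in both genes.

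Across the 12 arrays the 28 pairs among these genes had a median correlation of 0.754 in level, from 0.098 for ATG8F with ATG8G to 0.934 for ATG8E with ATG8H and for ATG8B with ATG3. With the group means removed the median was 0.542, with ATG8B and ATG8H highest at 0.92. All 7 pairs with ATG8F were then negative, from -0.398 to -0.058. The points are the same 12 arrays throughout, so these values also carry what each array adds to all its genes. The ATG8 genes are related in sequence and the probe sequences were not used here, so how far a probe set reads a close relative was not tested.

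The member with the widest range of group means was ATG8B, at 1.51. Among 1794 other named genes outside the autophagy list, those whose levels over the 12 arrays correlated best with it were HIS1-3 (AT2G18050), a linker histone variant gene (r = 0.981), PAHX (AT2G01490), of the phytanoyl-CoA hydroxylase family (r = 0.96), and DI21 (AT4G15910), a drought-induced gene (r = 0.958). HIS1-3 averaged 10.11 with lincomycin and 8.42 without it in gun1-101, and 10.15 with it and 8.94 without it in Col-0. ATG3 correlated with ATG8B at 0.934, and 92 of all tested genes did so more closely.

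Of 42 other loci in a list of the autophagy machinery and its regulators, 13 were measured. The list covers initiation, membrane supply, the lipid kinase, conjugation, receptors and TOR signalling. The annotation names 4 of the 13, and the other 9 are given by locus only. In gun1-101 lincomycin raised 2 and lowered 1 of the 13 (median difference -0.11, and -0.06 over all genes), where 20.4% of all tested genes were called. In Col-0 it raised 2 and lowered none (median 0.38, and 0.02 over all genes), where 14.3% were called. Both counts lie near these shares. No gene of the list was called between the genotypes with lincomycin, without it, or in the interaction, where 9.58%, 0.0181% and 6.97% of all tested genes were called. An unadjusted limma p under 0.05 was found there for 2, 1 and 8 of the 13. The share of all genes with such a p was not counted, so these counts cannot be read as a result about the list. Without the 2 divergent Col-0 arrays, 2 were called higher and 5 lower in gun1-101 with lincomycin, 6 higher and 2 lower without it, and 2 higher and 8 lower in the interaction. In that fit 24.7%, 17.2% and 32.5% of all genes were called. The 2 higher in the interaction were ATG8A at 2.13 (adjusted p = 3.51e-05) and ATG8I at 1.04 (adjusted p = 0.00074), which stood at 0.35 and 0.29 with the array covariate, where none of the 13 was called. For both, the 2 arrays left out were the highest Col-0 lincomycin array and the lowest Col-0 control, so their interaction had to rise. For the 8 called lower they were the lowest Col-0 lincomycin array and the highest Col-0 control, so their interaction had to fall. The genotype differences called in that fit likewise had to move in the direction of their calls. These calls are no independent result.

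The 2 genes that rose in gun1-101 were the remaining measured ATG8 genes. ATG8A (AT4G21980) stood at 9.66, 9.65 and 9.53 in gun1-101 with lincomycin, against 8.34, 8.38 and 8.38 in gun1-101 controls, a difference of 1.25 (SE 0.38, adjusted p = 0.0386). ATG8I (AT3G15580, which the array annotation calls APG8H, a gene distinct from ATG8H) stood at 10.27, 10.23 and 10.32, against 9.58, 9.41 and 9.56 in controls, a difference of 0.76 (SE 0.19, adjusted p = 0.0161). Both were apart by more than the spread of their arrays, and both kept their call with the array covariate, at 0.68 and 0.53.

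In Col-0 the arrays of this pair spread widely, with the 2 divergent arrays apart from the rest of their groups. ATG8A stood at 8.56, 8.70 and 9.71 in Col-0 with lincomycin, against 7.95, 9.51 and 9.51 in Col-0 controls, a difference of -0.01 (95% interval -0.84 to 0.83). Without lincomycin replicate 3 and control replicate 1 it was called lower with lincomycin, at -0.89 (adjusted p = 0.000449). Its highest lincomycin array and its lowest control are those 2. ATG8I stood at 9.70, 9.80 and 10.27, against 9.40, 10.05 and 10.02 in controls, a difference of 0.10 (95% interval -0.31 to 0.52), and -0.28 (adjusted p = 0.0897) without both arrays.

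Of the listed genes outside the ATG8 family, AT4G34660 fell in gun1-101 by 0.58 (SE 0.17, adjusted p = 0.0373), to 9.08, 8.92 and 9.07 with lincomycin, against 9.65, 9.38 and 9.76 in controls. It lost its call with the array covariate (-0.42, adjusted p = 0.0968). In Col-0 AT3G61960 rose by 0.71 (SE 0.21, adjusted p = 0.0396) and AT3G53930 by 0.48 (SE 0.15, adjusted p = 0.0478); in gun1-101 they differed by -0.29 and -0.11, not called. Both Col-0 calls ended when the medians of the arrays were made equal, where no gene of the list was called in Col-0. With the array covariate both were called, at 0.55 (adjusted p = 0.0126) and 0.39 (adjusted p = 0.0347). Without the 2 divergent Col-0 arrays AT3G61960 stood at 1.13 (adjusted p = 0.000307) and AT3G53930 at 0.72 (adjusted p = 0.00187). For both, those arrays were the lowest Col-0 lincomycin array and the highest Col-0 control, so their Col-0 difference had to grow. RAPTOR1, a partner of the TOR kinase, which restrains autophagy, stood at 9.48, 9.94 and 9.93 in gun1-101 with lincomycin, against 10.40, 10.35 and 10.45 in gun1-101 controls, a difference of -0.62 (adjusted p = 0.101). It was called without the 2 divergent Col-0 arrays (adjusted p = 0.00729), where the difference stayed at -0.62 and its SE went from 0.25 to 0.13. With the array covariate the difference was -0.31 (adjusted p = 0.267), not called. ATG101, a subunit of the kinase complex that starts autophagy, differed by 0.08 in gun1-101 (adjusted p = 0.738) and by 0.45 in Col-0 (adjusted p = 0.055), where it was called without those arrays (0.58, adjusted p = 0.0267). Without the 2 divergent Col-0 arrays, 8 of the 13 were called higher in Col-0 and 1 lower, which was ATG8A, and 3 were called higher and 2 lower in gun1-101. In that fit 28.9% of all genes were called in Col-0 and 31.1% in gun1-101. For all 8 genes called higher in Col-0, ATG101 among them, replicate 3 was the lowest Col-0 lincomycin array. Control replicate 1 was their highest Col-0 control, so leaving both out had to raise their Col-0 difference. Col-0 calls made only in that fit are no independent result.

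**Figure D4:**
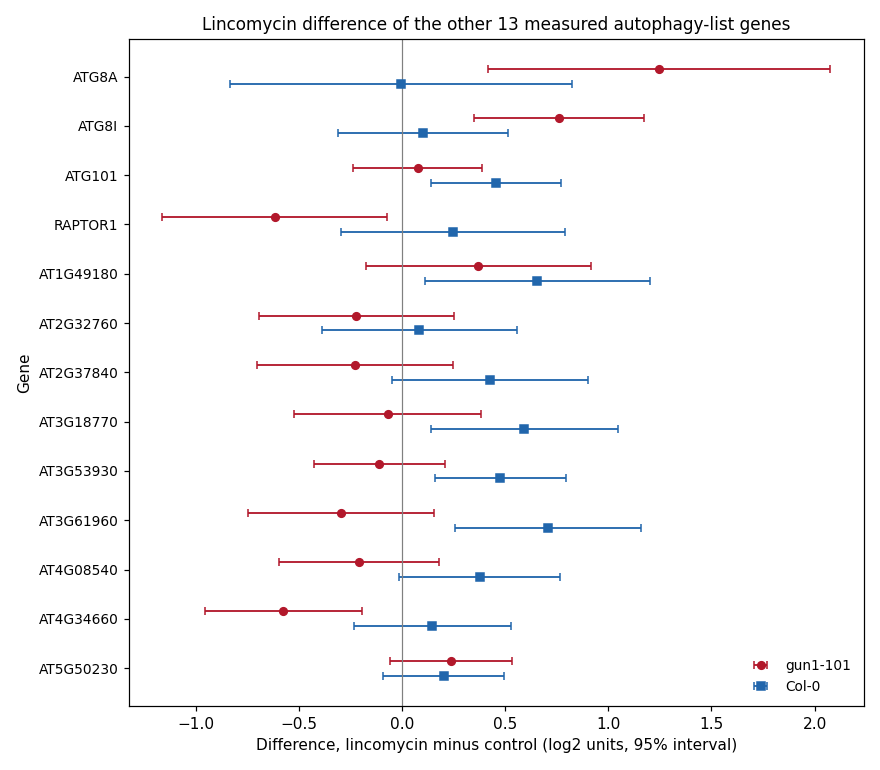
Difference of lincomycin minus control (log2 units, 95% interval) for the 13 other measured genes of the autophagy list in gun1-101 (circles, upper) and Col-0 (squares, lower). ATG8A and ATG8I lie furthest to the right in gun1-101, at 1.25 and 0.76, and near 0 in Col-0, at -0.01 and 0.10.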

How the data were processed

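Biotinylated cRNA from total RNA of seedlings was prepared by the standard Affymetrix protocol, as the labels say. The authors' deposited values are log2 levels; the submitters' processing notes name RMA and Affymetrix Expression Console 1.3. Because RMA makes the arrays' distributions equal, it would hide a shift of most transcripts. Array design and genome build were not stated, so no coordinates are given. Of 38408 probe sets 16722 were paired with 1 gene, 759 with several and 20927 with none listed, and 16574 matched a RefSeq gene table of TAIR10.1. The probe set with the highest mean stood for a gene.

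Groups came from sample titles. A model with 1 mean per group was fitted with limma 3.58.1 in R 4.3.3 (8 residual degrees of freedom) for 5 comparisons, and was tested on simulated data. The number of arrays limits the precision. No low-value filter was applied. Members and lists were chosen with earlier results of these data known. All 8 members and the called genes of the autophagy list are named; ATG101 and RAPTOR1 were added after their values were seen, since the annotation names them. The likeness rule took the member with the widest range of group means and the 3 named genes of highest Pearson r. The alternatives tried were scaling, array weights, probe set choice, low-value filter, moderation, arrays left out, a replicate block and the array covariate, which was added after seeing the data.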

Additional observations from a re-analysis of the deposited data

Results flagged for a closer look

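The lincomycin response of ATG8H differed between the genotypes, 1.07 larger in gun1-101 than in Col-0 on the log2 scale (limma adjusted p = 0.0362 for the interaction). The call was lost when any 1 of 10 of the 12 arrays was left out (highest adjusted p = 0.096), with the array covariate (0.75) and with every probe set tested. The response was positive in both, at 1.41 in gun1-101 and 0.33 in Col-0. Groups of 3 arrays are too small for a test of single outlying arrays, which needs at least 4.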

How the results depend on the processing

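Of the 8 genes, the number called with lincomycin in gun1-101 was 7, in Col-0 1, between genotypes with lincomycin 1 and without it 0, and in the interaction 1. The shares of all genes called were 20.4%, 14.3%, 9.58%, 0.0181% and 6.97%. Leaving out each array in turn gave 4 to 7, 1 to 2, 1 to 4, 0 and 0 to 5 in the same order. The shares of all genes called were then 11.9% to 25.9%, 8.19% to 20.4%, 4.52% to 14.9%, 0% to 6.37% and 2.29% to 23.4%. The 4 between genotypes came without Col-0 lincomycin replicate 3, where 14.9% of all genes were called. The 5 in the interaction came without Col-0 control replicate 1, where 23.4% were called. Without both Col-0 lincomycin replicate 3 and control replicate 1, 5 were called between genotypes with lincomycin, 2 without it and 5 in the interaction, where 24.7%, 17.2% and 32.5% of all genes were called. Array weights gave 4 between genotypes with lincomycin and 5 in the interaction, where 26.5% and 33.5% of all genes were called. Testing every probe set gave 0 in the interaction, where 3.95% of 38408 probe sets were called. Fits to only the groups compared gave 0 in Col-0 and 2 between genotypes with lincomycin (ATG8E added). In those fits 6.45% and 8.06% of all genes were called. The array covariate, chosen after seeing the data, gave 5 in gun1-101, 2 in Col-0 and 0 in the interaction. In that fit 17%, 17.1% and 3.18% of all genes were called. ATG8C and ATG8G lost their calls in gun1-101, and the median difference of the 8 genes there went from 1.15 to 0.869. The covariate was lower on every gun1-101 lincomycin array than on every gun1-101 control. Whether replicate numbers pair the arrays was not settled. Of 18 same-number pairs, the deviations of 7 correlated above 0.1 (-0.298 to 0.439). Col-0 lincomycin and control correlated at 0.439, -0.298 and 0.39 in replicates 1, 2 and 3. Pairs of unlike number were not compared. With replicate number as a block, 6 were called with lincomycin in gun1-101 and 2 between genotypes with lincomycin. In these 2 comparisons 20.8% and 10.1% of all genes were then called. The counts of the other comparisons were those without the block. Equal medians, quantile normalisation, means over probe sets and leaving out the 25% of genes with the lowest mean gave the counts without them in all 5 comparisons. Apart from arrays left out, the causes were not tested. ATG8C lost its call in gun1-101 with the block, every probe set and robust moderation with a trend. With 3 arrays a group, SEs of 0.11 to 0.35 between groups limit which differences could be called.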
